A study of Mus musculus with 30 samples.

Results

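Thyroid hormone and the pituitary hormone that drives it sit between day length and hypothalamic output, and 7 genes of that system were followed here in the eye and hypothalamus of mice with and without Per3: Dio2, Dio3, Tshr, Slco1c1, Thra, Thrb and Crym. The genes were chosen by name, and every probe that carries one of these names in the hypothalamus array files was taken and matched to the eye files by probe identity, which gave 7 of the 28146 gene names and 12 of the 41174 non-control probes of the array. Dio2, Dio3, Slco1c1 and Crym had 1 probe each, Thra and Tshr had 2 each, and Thrb had 4.

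The animals were adult male Per3 knockout mice (Per3-/-), which carry a constitutive deletion in the period gene Per3, and wild-type (WT) littermates, both on a C57Bl/6J background. After a period on ordinary light-dark days, all of them, WT mice included, were housed through 17 cycles of 3.5 h light and 3.5 h dark. They were killed in the light part of the last cycle, so no group here was sampled on an ordinary day. Whole eyes and a tissue block cut around the optic chiasm, which contains the suprachiasmatic nuclei, were hybridized to one-colour microarrays: 8 WT and 8 Per3-/- mice for the hypothalamus, and 7 WT and 7 Per3-/- mice for the eye. A total of 14 mice contributed both tissues. A whole eye and a tissue block each mix many cell types, so fewer cells of a type and less RNA per cell cannot be told apart.

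The thyroid gland releases mostly the prohormone thyroxine. Inside the brain it is carried across the blood-brain barrier by Slco1c1 (the organic anion transporter OATP1C1) and is turned into the active hormone by type 2 deiodinase, the product of Dio2, whereas type 3 deiodinase, the product of Dio3, inactivates both forms. Crym encodes mu-crystallin, a cytosolic protein that binds the active hormone, and Thra and Thrb encode the nuclear receptors. Tshr is the receptor for thyroid-stimulating hormone; in the photoperiodic response of birds and mammals, thyroid-stimulating hormone from the pars tuberalis acts on tanycytes of the hypothalamus through Tshr and shifts the balance of Dio2 and Dio3. In the retina, thyroid hormone and Thrb direct the choice of cone opsin.

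Of the 12 probes, 3 are printed here because they part from the other probes of their gene in tissue difference, transcript match or brightness. Probes of the same gene do not overlap, and which receptor forms they report on was not annotated. The sequences run 5′ to 3′ as the array files give them, in lower case throughout because no part is singled out.
Thra A_52_P666930: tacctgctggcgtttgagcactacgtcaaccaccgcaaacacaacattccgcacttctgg
Thrb A_52_P265108: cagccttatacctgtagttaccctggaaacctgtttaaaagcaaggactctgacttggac
Tshr A_52_P145539: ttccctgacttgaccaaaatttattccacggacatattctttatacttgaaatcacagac
On mm9, the build of the hypothalamus files, the Thra probe lies at chr11:98625642-98625701 on the plus strand, upstream of the gene's other probe at chr11:98626356-98626415. The Thrb probe lies at chr14:18814565-18814624 on the plus strand and is the only Thrb probe that the files match to 1 RefSeq transcript rather than to 2. The other Thrb probes lie further along the gene, at chr14:18866221-18866280 (A_51_P388835), chr14:18868800-18868859 (A_52_P532559) and chr14:18869432-18869491 (A_52_P877015). The printed Tshr probe covers 60 bases of transcript but spans 2436 bases of genome, chr12:92743738-92746173, so it crosses at least 1 intron, and the other Tshr probe (A_51_P179103) lies at chr12:92777017-92777076. The single probes lie at chr12:91963235-91963294 on the minus strand (Dio2), chr12:111519117-111519176 (Dio3), chr7:127329970-127330029 on the minus strand (Crym) and chr6:141511731-141513094 (Slco1c1, also across an intron, with 1364 bases spanned). Exon and coding annotation of this build was not used here.

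Values are log2 signals after the 75th percentile of the array was subtracted, so 0 is the brightness of a probe at that percentile and differences are on the log2 scale. Signals of different probes were not compared as levels of expression. Their brightness served only to mark dim probes and to choose 1 probe for a gene with several. Well above background means that the scanner software found a spot clearly brighter than its surroundings. The arrays had between 68.0% and 80.8% of probes well above background. The eye and hypothalamus arrays were run apart, on separate slides and scan days and from different probe grids, so tissue and array run cannot be told apart in any difference between the tissues. The lists of marker genes put the tissues in their place: all 7 rod probes and all 6 cone probes were above background on each eye array, while 9 of 10 probes for hypothalamic neuropeptides and related genes were lower in the eye. The hypothalamic blocks were not all alike. Summed over 7 probes, pituitary genes such as growth hormone and prolactin reached 9.20 in Per3-/- mouse 1 and 5.26 in WT mouse 5, against -1.42 to -0.44 in the other 14 mice, and the sum over 12 probes for choroid plexus genes ran from 1.44 to 4.70. Per3, the targeted gene, was measured by a single probe whose place relative to the deleted part is not given in the sources used here: WT hypothalami gave -3.46 ± 0.15 and Per3-/- hypothalami -3.97 ± 0.21 (SD, n = 8 each), which is a difference of -0.51 ± 0.09 (SE; limma adjusted p = 0.0657). In the eye the signals were -3.13 ± 0.39 and -3.58 ± 0.52 (SD, n = 7 each), and the difference of -0.45 ± 0.23 (SE; 95% confidence interval -0.95 to 0.05) did not pass (limma adjusted p = 1.0).

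The eye and the hypothalamus differed in most of these genes. Of the 12 probes, 9 passed an adjusted p of 0.05 in limma's test of eye against hypothalamus, 5 higher in the eye (Dio3, Crym, both Tshr probes and 1 Thrb probe, with the dimmer Tshr probe and the Thrb probe at background in the hypothalamus) and 4 lower (Slco1c1, both Thra probes and another Thrb probe). Among all probes 83.1% passed, 47.9% higher and 35.2% lower in the eye, so 9 of 12 is near the background. Sizes and differences between probes of a gene are described below. How many same-gene probe pairs of the whole array differ in this way was not counted. The median of all probes lay at 0.19 on the log2 scale under this scaling, at -0.07 with quantile normalization and at 0.37 with background correction by normexp. The 9 differences kept their direction under each of these scalings.

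**Figure D1:**
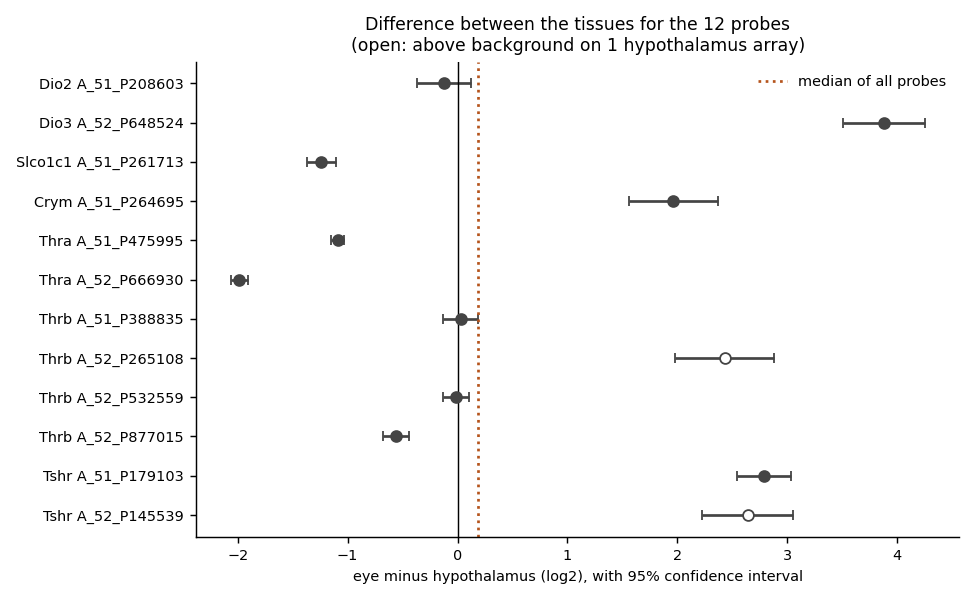
The x axis gives the difference between eye and hypothalamus on the log2 scale for each of the 12 probes, with the 95% confidence interval as bars and the median of all probes as a dotted line at 0.19. Dio3 at 3.88 lies furthest to the right and Thra A_52_P666930 at -1.99 furthest to the left, and the open circles are the Thrb and Tshr probes that were well above background on 1 hypothalamus array, so that their place on the axis rests on background values.

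The deiodinases parted ways. Dio3 had log2 signals of -3.99, -3.40 and -2.39 (lowest, median, highest) in the hypothalamus of WT mice and of -4.23, -3.56 and -2.26 in Per3-/- mice. In the eye the same 3 values were 0.37, 0.56 and 0.82 in WT and 0.10, 0.40 and 1.21 in Per3-/- mice. Every eye thus exceeded every hypothalamus, and the mean difference of 3.88 ± 0.18 (SE), a 14.7-fold higher signal in the eye, had an adjusted p of 2.57e-18 (limma, 16 hypothalamus and 14 eye arrays). Dio2, which makes the active hormone, showed no such gap. Its signals ran from 1.02 to 1.62 with a median of 1.40 in WT and from 1.37 to 2.01 with a median of 1.57 in Per3-/- hypothalamus, and in the eye from 0.53 to 1.76 (median 1.42) in WT and from 0.70 to 2.29 (median 1.27) in Per3-/- mice. The tissues overlapped, and the difference of -0.12 had a 95% confidence interval of -0.37 to 0.12 (limma adjusted p = 0.331), which leaves room for a small difference either way. The spread of Dio2 between mice was wider in the eye (SD 0.42 in WT and 0.49 in Per3-/-) than in the hypothalamus (SD 0.21 in both), and that of Dio3 was wider in the hypothalamus (SD 0.68 and 0.65) than in the eye (SD 0.15 and 0.37); these spreads were not tested.

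Carriage and binding of the hormone also differed between the tissues, in opposite directions. The transporter gene Slco1c1 had hypothalamic signals of 0.34, 0.49 and 0.63 (lowest, median, highest) in WT and of 0.34, 0.53 and 0.88 in Per3-/- mice. In the eye it had -0.90, -0.77 and -0.59 in WT and -0.94, -0.63 and -0.34 in Per3-/- mice. No eye reached the lowest hypothalamus, and the difference was -1.24 ± 0.07 (SE; 2.36-fold lower in the eye, limma adjusted p = 7.52e-17). Crym, the binding protein, went the other way. Its hypothalamic signals were widely scattered, from -0.04 to 2.09 with a median of 0.42 in WT and from -0.47 to 1.5 with a median of -0.03 in Per3-/- mice, whereas the 14 eyes lay close together between 2.29 and 2.68. Every eye was above every hypothalamus, by 1.96 ± 0.20 (SE) in the mean, or 3.9-fold (limma adjusted p = 3.1e-10).

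**Figure D2:**
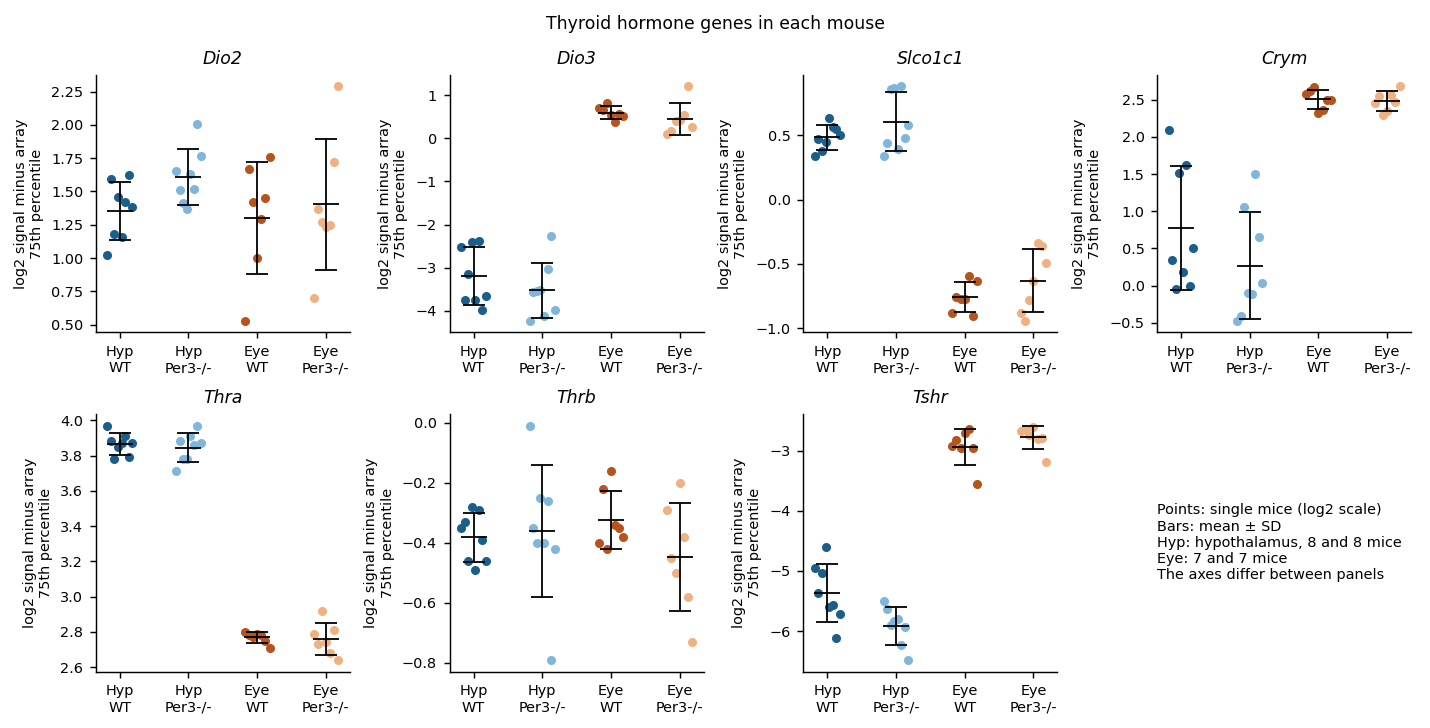
Each panel plots the log2 signal minus the array's 75th percentile (y axis) of 1 gene in every mouse, by tissue and genotype (x axis: hypothalamus WT and Per3-/-, 8 mice each, eye WT and Per3-/-, 7 mice each), with the mean ± SD as black bars, for the probe of each gene with the highest mean signal. Dio3, Crym and Tshr are higher in every eye, Slco1c1 and Thra are lower in every eye, Dio2 and Thrb overlap, and Crym and Dio3 spread over 3-fold or more among hypothalami of the same genotype.

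Thra, the receptor gene with the broader expression in brain, was lower in the eye with both probes, but not by the same amount. A_51_P475995 gave 3.86 ± 0.06 in WT and 3.84 ± 0.08 in Per3-/- hypothalamus (SD, n = 8 each) against 2.77 ± 0.03 and 2.76 ± 0.09 in the eye (SD, n = 7 each), a difference of -1.09 ± 0.03 (SE; limma adjusted p = 6.3e-24). A_52_P666930, whose sequence is printed above, gave 2.97 ± 0.08 and 2.90 ± 0.13 in the hypothalamus (SD, n = 8 each) against 0.90 ± 0.07 and 0.99 ± 0.12 in the eye (SD, n = 7 each), a difference of -1.99 ± 0.04 (SE; limma adjusted p = 9.94e-28). The groups of the tissues were fully apart with either probe. Within the 14 mice that gave both tissues, the tissue difference of A_51_P475995 exceeded that of A_52_P666930 by 0.87 ± 0.15 (SD), with 0.64 the smallest and 1.09 the largest gap. The gap had the same sign in 14 of 14 mice (exact two-sided sign-flip permutation p = 0.000122, the smallest that 14 mice allow; 0.000163 after adjustment over the 4 probe pairs compared).

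The 4 Thrb probes gave 3 different pictures. A_52_P532559 did not separate the tissues, with -0.38 ± 0.08 in WT and -0.36 ± 0.22 in Per3-/- hypothalamus (SD, n = 8 each) and -0.32 ± 0.10 and -0.45 ± 0.18 in the eye (SD, n = 7 each): the difference of -0.01 had a 95% confidence interval of -0.13 to 0.10. A_51_P388835 gave a difference of 0.03 with an interval of -0.13 to 0.19, but this value turned to -0.57 and passed the test with quantile normalization. A_52_P877015 was lower in the eye by -0.56 ± 0.06 (SE; limma adjusted p = 4.82e-10), with overlapping tissues. In the 14 mice with both tissues this probe differed from A_52_P532559 by 0.55 ± 0.14 (SD) and from A_51_P388835 by 0.57 ± 0.29 (SD), with the same sign in 14 of 14 mice each time (exact two-sided sign-flip permutation, adjusted p = 0.000163 for either pair). The remaining pair, A_51_P388835 and A_52_P532559, differed by 0.02 ± 0.27 (SD), positive in 7 of 14 mice (exact permutation adjusted p = 0.757). All pairs, that of Thra included, were compared under this scaling only. No share over same-gene pairs of the whole array stands beside them, and tissue and array run cannot be told apart in them either. Those with A_51_P388835 rest on a tissue difference that moved with quantile normalization.

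The fourth Thrb probe, A_52_P265108, lies in the part matched to a single transcript. It was well above background in 13 of 14 eyes and in 1 of 16 hypothalami. Eye signals ran from -6.20 to -5.35 (median -5.78) in WT and from -6.15 to -5.08 (median -5.63) in Per3-/- mice. In WT hypothalamus 0 of 8 arrays had the probe well above background, so only a rough fold can be given. The WT eye mean of -5.76 was 3.41-fold above a floor of -7.53. That floor averages, over the arrays, the dimmest signal called well above background, or the probe's own signal where that was higher. Brighter signals can still miss that call, as in WT mouse 8 at -6.99, so 3.41-fold is not a strict lower limit. The fit over both genotypes called the probe higher in the eye (limma adjusted p = 2.25e-11), with the hypothalamic side of that fit at background. The hypothalamus that did reach above background was that of Per3-/- mouse 1, at -6.01, the mouse with the highest pituitary gene signal. The other block with pituitary genes, WT mouse 5, gave -8.43, inside the range of -8.79 to -6.92 of the other 14 mice. The part of pituitary RNA in the signal of mouse 1 was not tested further.

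Tshr was higher in the eye with both of its probes. A_51_P179103 gave -6.11, -5.47 and -4.61 (lowest, median, highest) in WT and -6.48, -5.87 and -5.50 in Per3-/- hypothalamus. In the eye it gave -3.56, -2.92 and -2.65 in WT and -3.19, -2.74 and -2.61 in Per3-/- mice. All 14 eyes lay above all 16 hypothalami, with a difference of 2.79 ± 0.12 (SE; 6.89-fold, limma adjusted p = 3.63e-19). The intron-spanning probe A_52_P145539 was dimmer, well above background in 11 of 14 eyes and 1 of 16 hypothalami. Its WT eye mean was 3.64-fold above a floor set in the same way, which again is not a strict lower limit. Over both genotypes the probe was called higher in the eye (limma adjusted p = 6.57e-13), with the hypothalamic side at background.

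In the limma test used here, the study's main comparison, Per3-/- against WT within a tissue, moved none of these genes past the threshold. In the hypothalamus 0 of 12 probes had an adjusted p under 0.05 in limma, against 0.0413% of all probes (17 of 41174), and 2 of 12 had an unadjusted p under 0.05, against 2.82% of all probes. In the eye 0 of 12 passed, against 0.0194% of all probes (8 of 41174), and 0 of 12 had an unadjusted p under 0.05, against 1.8% of all probes. The unpaired test named in the study's methods also gave 0 calls in either tissue. By a rank products analysis, which was not run here, the paper counts Tshr among its differentially expressed hypothalamic genes. It counts the pathway genes Tshb and Mtnr1a there too. Over the 10 probes that were not at background in the hypothalamus, estimates there ran from -0.55 to 0.26, and in the eye over all 12 from -0.15 to 0.16. The medians over the 12 were -0.01 and -0.02, beside medians over all probes of -0.01 and 0.00.

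Tshr A_51_P179103 had the lowest unadjusted p of the 12 in the hypothalamus. The 8 WT mice gave, from mouse 1 to mouse 8, -4.96, -5.37, -5.03, -4.61, -5.60, -5.56, -6.11 and -5.71, and the 8 Per3-/- mice -5.50, -5.63, -5.90, -5.84, -5.80, -6.23, -5.94 and -6.48. The genotypes overlapped, with 2 Per3-/- mice below every WT mouse and 0 above. The difference was -0.55 ± 0.19 (SE; 95% confidence interval -0.96 to -0.14), with an exact two-sided permutation p of 0.0177 before adjustment and a limma adjusted p of 0.991 over all probes. Each of the 4 slides held both genotypes, and Per3-/- was the lower on all 4 of them, by -0.40, -1.05, -0.44 and -0.30. The signal was near the lower end of what the array resolves, with 8 of 8 WT and 7 of 8 Per3-/- hypothalami well above background. Background correction by normexp shrank the difference to -0.32, and without the 2 mice with pituitary genes it was -0.64. The second Tshr probe could not add to this, being at background in the hypothalamus of 8 of 8 WT mice.

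Dio2 was the other. Hypothalamic signals of the WT mice, in order of mouse number, were 1.02, 1.59, 1.18, 1.46, 1.16, 1.42, 1.62 and 1.38, and those of the Per3-/- mice were 1.65, 1.51, 1.41, 1.37, 1.63, 1.52, 2.01 and 1.77. The upper part of the Per3-/- range lay beyond the WT range, with 4 of 8 Per3-/- mice above every WT mouse and 0 below. The difference was 0.26 ± 0.10 (SE; 1.19-fold, 95% confidence interval 0.04 to 0.47), with an exact two-sided permutation p of 0.0286 before adjustment and a limma adjusted p of 0.991. By slide it was 0.28, 0.07, 0.28 and 0.39. Without WT mouse 1 the difference was 0.21 and without the 2 mice with pituitary genes it was 0.22, and in both cases limma's unadjusted value was no longer under 0.05.

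**Figure D3:**
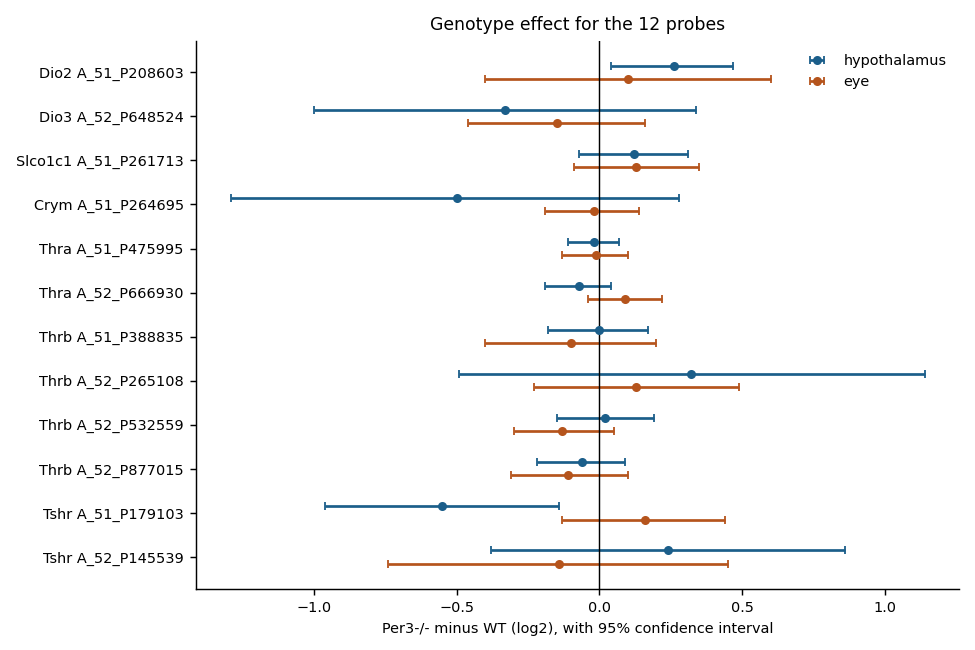
The x axis gives Per3-/- minus WT on the log2 scale for each of the 12 probes, with the hypothalamus and the eye in separate colours and 95% confidence intervals as bars. The intervals of Tshr A_51_P179103 and of Dio2 in the hypothalamus leave out 0, all others include it, and the widest intervals belong to Crym, Dio3 and the dim probes.

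For the rest of the genes the data set limits rather than differences. Crym in the hypothalamus was -0.50 ± 0.37 (SE) in Per3-/- against WT and Dio3 was -0.33 ± 0.31 (SE), and with the scatter between mice the intervals were wide, -1.29 to 0.28 and -1.0 to 0.34. For Crym 4 of 8 Per3-/- mice lay below every WT mouse, but the within-slide differences were -1.65, -0.26, -0.21 and 0.11, so slide 1 made most of the mean. With 1 mouse left out, the Crym difference ran from -0.68 to -0.31 (without WT mouse 1) and the Dio3 difference from -0.51 (without Per3-/- mouse 7) to -0.21 (without WT mouse 6; -0.22 without WT mouse 4). Slco1c1 differed by 0.12 (interval -0.07 to 0.31). Of the receptor probes, Thra A_51_P475995 differed by -0.02 (interval -0.11 to 0.07) and A_52_P666930 by -0.07 (interval -0.19 to 0.04), and the Thrb probes A_52_P532559 and A_52_P877015 by 0.02 (interval -0.15 to 0.19) and -0.06 (interval -0.22 to 0.09), with A_51_P388835 between -0.18 and 0.17 and A_52_P265108 at background. In the eye the intervals were -0.40 to 0.60 for Dio2, -0.46 to 0.16 for Dio3, -0.09 to 0.35 for Slco1c1, -0.19 to 0.14 for Crym and -0.13 to 0.44 for Tshr A_51_P179103. Dio3 in the eye moved from -0.15 to -0.28 without Per3-/- mouse 7. The exact two-sided permutation p was then 0.00932 before adjustment and the limma adjusted p 1.0. That mouse was singled out because its Dio3 value stood apart, so this permutation p is a description and not a test of the difference.

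Whether Per3 loss acted differently in the tissues was tested directly. None of the 12 probes passed an adjusted p of 0.05 (all 1.0 in limma), against 0.00486% of all probes (2 of 41174). At an unadjusted p under 0.05 there were 2 of 12, against 2.21% of all probes. They were Tshr A_51_P179103, whose genotype difference was 0.71 ± 0.24 (SE) higher in the eye than in the hypothalamus (0.16 against -0.55), and Thra A_52_P666930, 0.17 ± 0.08 (SE) higher (0.09 against -0.07).

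The genes around these 7 in the same pathway were read from 5 lists: 14 probes for other carriers and transporters, 11 for the pituitary axis and its releasing hormone, 32 for receptor partners, 15 for genes that respond to thyroid hormone and 22 for photoperiod and melatonin genes. Among these 94 probes 0 passed in either tissue between the genotypes. At an unadjusted p under 0.05 there were 5 in the hypothalamus, against 2.82% of all probes, and 2 in the eye, against 1.8%, each of them lower in Per3-/-. Over all probes at that level 519 were higher and 644 lower in the hypothalamus, and 395 higher and 345 lower in the eye. The list medians lay between -0.06 and -0.02 in the hypothalamus and between -0.01 and 0.00 in the eye, close to the medians of all probes. Dbp, a clock-driven transcription factor on the list of responsive genes, was among them in both tissues: 4.90 ± 0.23 in WT and 4.64 ± 0.16 in Per3-/- hypothalamus (SD, n = 8 each), a difference of -0.25 ± 0.10 (SE; limma adjusted p = 0.991), and 4.91 ± 0.28 and 4.57 ± 0.16 in the eye (SD, n = 7 each), a difference of -0.34 ± 0.12 (SE; limma adjusted p = 1.0). The others in the hypothalamus were Npvf, the precursor of the RFamide peptides that regulate reproduction (-0.36 ± 0.13), the amino acid and thyroid hormone transporter Slc7a8 (-0.13 ± 0.05), the releasing-hormone receptor Trhr2 (-0.17 ± 0.08) and the melatonin receptor Mtnr1a (-0.55 ± 0.20, with 1 of 8 WT and 0 of 8 Per3-/- arrays well above background), all as difference ± SE. In the eye Tbl1xr1, part of the corepressor complex of the receptors, differed by -0.20 ± 0.09 (SE).

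The direct partners of the 7 genes placed them in their tissue. Dio1, the deiodinase of liver and kidney, was 1.67 ± 0.20 (SE) higher in the eye (limma adjusted p = 9.26e-09). Trh, the releasing hormone, was a hypothalamic gene here, at 0.65 ± 0.11 in WT and 0.70 ± 0.19 in Per3-/- mice (SD, n = 8 each) and well above background in 1 of 14 eyes. Transthyretin, Ttr, which carries thyroxine in cerebrospinal fluid and is made by the choroid plexus and the pigment epithelium, was steady in the eye, from 2.50 to 2.76 in WT and from 2.51 to 2.96 in Per3-/- mice, but ran from -6.29 to 2.51 in WT and from -5.72 to 3.03 in Per3-/- hypothalamus. The product of the hormone subunit genes Tshb and Cga is the ligand of Tshr. The Per3-/- maxima of Cga and of a Tshb probe stood far above the WT range in the hypothalamus. Cga reached 7.60 and the Tshb probe A_52_P146711 reached 3.33 in the Per3-/- hypothalamus with the highest values, against WT maxima of 1.56 and -2.82. The second Tshb probe, A_51_P252243, ran from -5.31 to -4.68 in Per3-/- and from -5.03 to -4.42 in WT mice, so the probes of this gene disagreed in that mouse. WT mouse 5, whose pituitary genes summed to 5.26, was among the WT mice within the maxima above.

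The 7 genes were then set against each other across mice, after the mean of each genotype was taken out, in 21 pairs per tissue and 42 in all. None passed after adjustment over the 42 (0 at an adjusted p under 0.05, 8 at an unadjusted p under 0.05). The largest value was that of Dio3 and Crym in the hypothalamus, with Pearson's r = 0.75 (permutation p = 0.00200, adjusted 0.0840) and Spearman's rho = 0.67 (permutation p = 0.00884, adjusted 0.180) over 16 mice. WT mice 1, 4 and 6 were high in both, with Dio3 at -2.51, -2.40 and -2.39 and Crym at 2.09, 1.51 and 1.62. The highest Dio3 signal, -2.26, was that of Per3-/- mouse 7, whose Crym was 0.66. For this pair r was 0.87 within WT and 0.60 within Per3-/- mice, and 0.78 without the 2 mice farthest from the median of Dio3. It was 0.76 after slide means were taken out, 0.74 with either of the other scalings and 0.71 without the 2 mice with pituitary genes. In the eye, where Crym hardly varied, the same pair gave r = 0.15 (permutation p = 0.648, rho = 0.34, permutation p = 0.240) over 14 mice; the difference between the tissues was not tested.

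**Figure D4:**
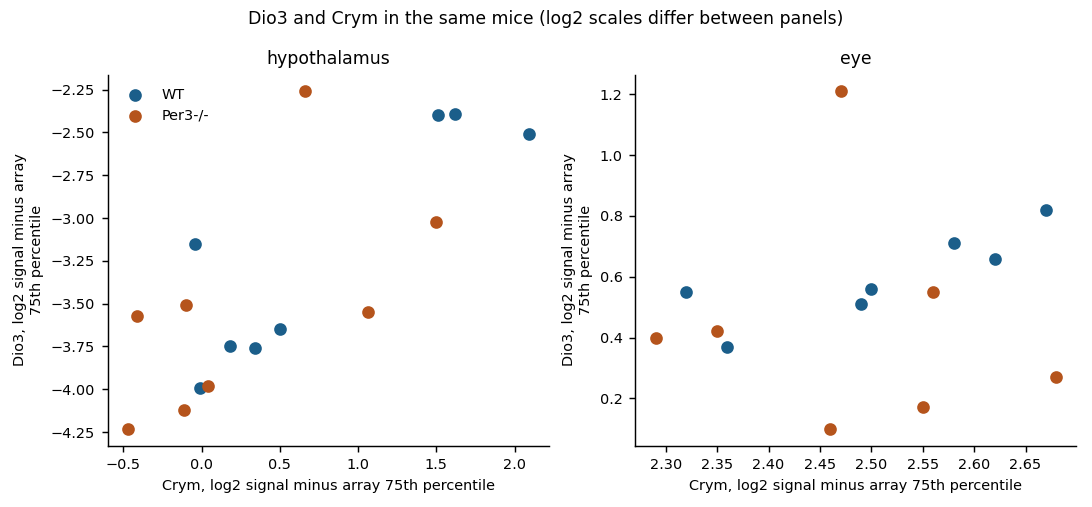
Each point is 1 mouse, with the log2 signal of Crym on the x axis and that of Dio3 on the y axis, both minus the array's 75th percentile, for the hypothalamus (left, 16 mice) and the eye (right, 14 mice), coloured by genotype. In the hypothalamus the mice with the highest Crym also have high Dio3 (r = 0.75 after genotype means were removed), and in the eye the points form no line (r = 0.15), on axes with other ranges.

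Slco1c1 moved with choroid plexus marker genes in the hypothalamus. Across the 16 hypothalami its signal and the summed choroid plexus markers had r = 0.75 after genotype means were removed, over arrays that share slides. Its r was 0.51 with the summed tanycyte and ependyma markers and 0.52 with the summed astrocyte markers. The choroid plexus value was picked from all marker lists and genes, among which Thrb and the endothelium markers had r = -0.75. None of these values was tested. The 3 highest Slco1c1 signals, 0.86, 0.87 and 0.88, were those of Per3-/- mice 3, 4 and 6, which also had the 3 highest choroid plexus sums, 4.56, 4.68 and 4.70. The choroid plexus medians of the groups were 1.96 in WT and 2.58 in Per3-/- hypothalamus, and 10 of the 12 marker probes were above background on every array of either group. The part of choroid plexus RNA in the Slco1c1 signal was not tested further.

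**Figure D5:**
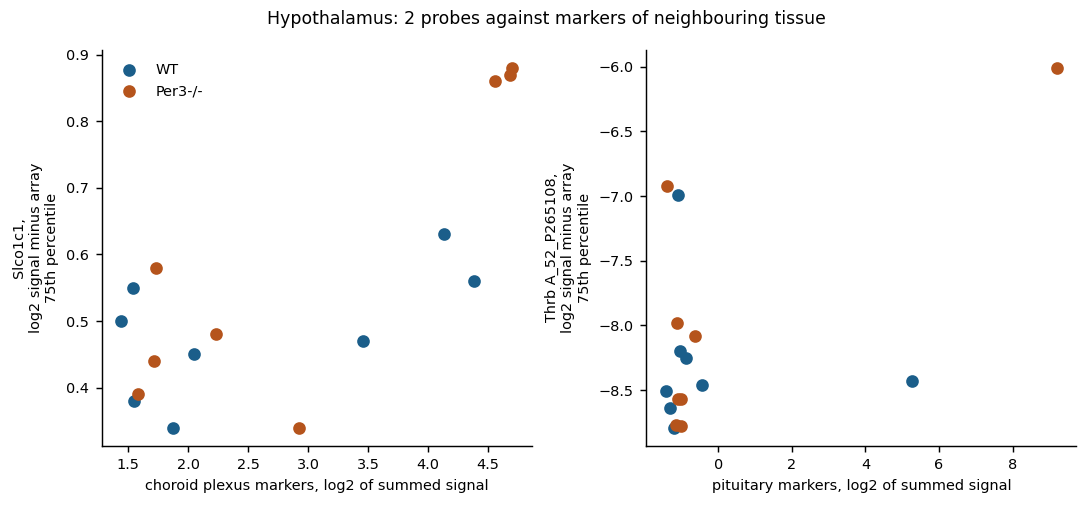
Each point is the hypothalamus of 1 mouse, coloured by genotype. On the left, the log2 signal of Slco1c1 (y axis) is plotted against the log2 of the summed choroid plexus markers (x axis), and 3 Per3-/- mice are highest on both axes; on the right, Thrb A_52_P265108 is plotted against the summed pituitary markers, and Per3-/- mouse 1 is alone at 9.20 and -6.01.

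The genes whose signals followed each of the 7 most closely from mouse to mouse were picked by Pearson's r of the same residuals among named probes that stood well above background throughout the tissue (24073 in the hypothalamus and 24711 in the eye), and are given as a description. In the hypothalamus, Slco1c1 was followed by Prom1 (r = 0.90), Foxj1 (0.89) and Elovl7 (0.88); Foxj1 is the master regulator of motile cilia and marks ependyma. Crym was followed by Akap5 (0.86), Ppp1r1b (0.84) and Slitrk4 (0.84), and Dio3 by Tmtc1 (0.86), Slitrk4 (0.85) and Erf (0.84), so that Slitrk4 stood in both sets. Ppp1r1b encodes DARPP-32, the dopamine-regulated phosphatase inhibitor of striatal neurons. Tshr was followed by Telo2 (0.94), Mgat5 (0.89) and Tceanc (0.88), and Dio2 by Rnpep (0.84), Ubqln4 (0.83) and Gm8267 (0.83). Thra was followed by Ccnh (0.89), Shprh (0.84) and Auts2 (0.84), and Thrb by Scnn1a (0.93), Adamts9 (0.89) and Anxa5 (0.87). Without the 2 mice farthest from the median of each gene, Anxa5 fell to 0.43. The other leading genes in the hypothalamus then had r from 0.71 (Rnpep) to 0.93 (Telo2).

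In the eye, over 14 mice, Crym was followed by Wdr61 (r = 0.94), Fbll1 (0.94) and Arl6 (0.92), and it also had r = 0.75 with the summed cone markers and 0.62 with the summed rod markers. Arl6 encodes a ciliary protein that is mutated in Bardet-Biedl syndrome, a disorder with photoreceptor loss. Dio2 was followed by Hspa8 (0.89), Ddx19a (0.85) and the neurotrophin gene Bdnf (0.85), Dio3 by Fam83a (0.91), Tkt (0.89) and Dynlrb2 (0.85), and Slco1c1 by the retinol dehydrogenase gene Rdh11 (0.91), Tmcc1 (0.89) and B3gnt1 (0.86). Thra was followed by Msl1 (0.89), Gsta4 (0.89) and F8 (0.85), and Thrb by Msi2 (0.93), Rnf149 (0.87) and Sgip1 (0.85). Tshr was followed by Tet2 (0.96), Rapgef6 (0.95) and Tab2 (0.95). Without the 2 mice farthest from the median of each gene, every r of these leading genes in the eye was lower, down to 0.64 for Dynlrb2. For Tet2, Rapgef6 and Tab2 the values were then 0.78, 0.74 and 0.83. No p is given, since these genes were picked for their r. None of these leading genes was shared between the tissues for any of the 7. With so few kept from so many ranked probes, this does not bear on whether the tissues differ.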

How the data were processed

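Total RNA from whole eye and from hypothalamic blocks of the same mice was labelled with Cy3 and hybridized to Agilent one-colour arrays; the authors scanned them and extracted spot values with Agilent Feature Extraction. The deposited scanner files hold spot intensity on a linear scale. The authors also deposited a table of log2 values, which matched log2 processed signals minus the 75th percentile and centred on each probe's median within a tissue (lowest r = 0.994 with the values computed here); it was used as an alternative.

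From the processed intensity of 41174 non-control probes, log2 was taken and the array's 75th percentile subtracted. Spots flagged as outliers were left out (114 probe values in all). Genotypes were compared within each tissue, and tissues in 1 fit of 30 arrays in which each mouse was a random effect (within-mouse correlation 0.0591), using lmFit and eBayes of limma 3.58.1 in R 4.3.3, with Benjamini-Hochberg adjustment over all probes. Single values were tested by exact permutation over mice, and correlations by 100000 permutations within genotype (scipy 1.17.1). The fits were tested on simulated data. Precision is limited by how many arrays there are.

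The 12 probes were taken by gene name; their accessions matched current symbols in RefSeq for 12 of 12. A gene with several probes was represented in the plots and correlations by the one with the highest mean signal. From the pathway lists, partners of the hormone and genes with an unadjusted p under 0.05 were named; 1 partner is not reported here. The genes and lists were chosen with earlier results of these data known. Deviations of same-numbered mice of different genotype had r from -0.204 to 0.396 in the hypothalamus (8 pairs) and from 0.00194 to 0.68 in the eye (6 pairs); since not every pair exceeded 0.1, they were not treated as pairs. That same-numbered eye and hypothalamus samples of a genotype come from 1 mouse was taken from the labels. The paper states littermates and single housing, but not which mice shared a litter. Litter was therefore not modelled, and p-values measure the spread between these mice. Alternatives were the methods' unpaired test, slide and replicate blocks, quantile normalization, normexp background correction (offset 50), a background filter, kept outlier spots, the authors' log2 values, each array left out and, added after seeing the data, 2 arrays with pituitary genes left out.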

Additional observations from a re-analysis of the deposited data

Results flagged for a closer look

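In 6 of the 48 sets of values (12 probes in 4 groups), 1 mouse stood apart from the rest of its group by Dixon's criterion, where chance flags about 1 set in 20. The Tshr probe A_51_P179103 was low in the eye of WT mouse 8, at -3.56 against -2.96 to -2.65 in the other WT eyes, and in the eye of Per3-/- mouse 8, at -3.19 against -2.81 to -2.61. Dio3 was high in the eye of Per3-/- mouse 7, at 1.21 against 0.10 to 0.55. Without that mouse the genotype difference of Dio3 in the eye was -0.28 (exact two-sided permutation p = 0.00932 before adjustment, limma adjusted p = 1.0). As the mouse was left out for its value, the permutation p is a description only. The hypothalamus of Per3-/- mouse 7 had the highest Dio3 signal of its group, -2.26. It was alone in its group with Tshr A_52_P145539 above background, at -6.48 against -9.12 to -8.42. Thrb A_51_P388835 was high in the eye of Per3-/- mouse 6, at -3.59 against -4.40 to -4.06. Thrb A_52_P265108 was at -6.99 in the hypothalamus of WT mouse 8 against -8.79 to -8.20, not well above background.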

How the results depend on the processing

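The count of probes called between genotypes stayed at 0 of 12 in both tissues under every alternative that adjusts over all probes, each array left out included (from 0 to 0), as did the test of the difference between tissues; without adjustment, exact permutation gave 2 in the hypothalamus (Tshr and Dio2) and 0 in the eye. The tissue count of 9 ran from 8 (of the 11 probes that pass a background filter) to 10 (quantile normalization), and was 9 with each array left out. The replicate block gave 0 calls in either tissue; the hypothalamic difference of Tshr A_51_P179103 stayed at -0.55 (adjusted p = 0.955) and that of Dio2 at 0.26 (adjusted p = 0.955). Over all alternatives the adjusted p of both stayed at 0.433 or above. Values that changed sign were all small ones in the main fit that no test had called there, and the cause was not tested. With quantile normalization Thra A_51_P475995 in the eye was 0.00125, and Thrb A_51_P388835 between the tissues was -0.57, which passed the test. With normexp, the median genotype difference of all probes in the eye was 0.18. There the eye gave 0.20 for Thrb A_51_P388835, 0.08 for Thrb A_52_P877015 and 0.29 for Tshr A_52_P145539, and the tissue difference of Thrb A_52_P532559 was 0.07. This last value was 0.01 with the mouse as a fixed block, 0.06 in WT alone and 0.00015 without the 2 mice with pituitary genes, which also gave 0.00208 for Thra A_51_P475995 and -0.04 for Thrb A_52_P532559 in the hypothalamus. With 1 array left out, genotype differences crossed 0 in the hypothalamus for Thra A_51_P475995 (-0.04 to 0.00145), Thrb A_51_P388835 (-0.05 to 0.03) and Thrb A_52_P532559 (-0.03 to 0.08), and in the eye for Dio2 (-0.05 to 0.22), Crym (-0.06 to 0.00654), Thra A_51_P475995 (-0.04 to 0.00843) and Tshr A_52_P145539 (-0.32 to 0.09); tissue differences did so for Thrb A_51_P388835 (-0.02 to 0.05) and A_52_P532559 (-0.04 to 0.00902). Fits with 1 array left out kept the mouse correlation of the full set. Signal over background limits the Thrb A_52_P265108 and Tshr A_52_P145539 probes in the hypothalamus, where a genotype difference could not be measured.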
